A study of Mus musculus with 4 samples.

Results

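The olfactory receptor genes of mouse chromosome 11 were examined for RNA polymerase II (Pol II) in heart, kidney, liver and lung. All protein-coding genes on this chromosome whose symbol starts with Olfr were taken, which gave 83 genes out of 21883 protein-coding genes of the autosomes (1 to 19) and the sex chromosomes. The rule uses symbol and chromosome and no measured value, although the set was proposed with earlier results of these data known. An antibody (4H8) against the C-terminal repeat domain of Pol II was used for chromatin immunoprecipitation and sequencing on organs of C57BL/6 mice, and the study compared its binding across these organs. The organs came from 2 mice, were flash frozen, crosslinked and sheared side by side in a 96-well plate, and the libraries were made by Tn5 tagmentation and read as pairs of 50 bases. The data are 1 list of called regions per organ, so n = 1 per organ, values carry no replicate error, and organs are set side by side without a test. The design text speaks of 8 pooled libraries. Whether a list joins both mice, and the age and sex of the mice, is not stated in the labels.

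Olfactory receptors are G protein-coupled receptors that bind odorants on the sensory neurons of the nose. They form the largest gene family of the mouse, sit in clusters on many chromosomes, and are chosen so that a neuron expresses a single receptor from a single allele. The other receptor genes are packed into heterochromatin, and in tissues outside the nose most of them are regarded as silent. A few are known from other organs, among them Olfr1393 of chromosome 11, a receptor of the kidney linked to glucose handling in the proximal tubule. Each receptor protein is usually encoded in a single coding exon, with non-coding exons and introns before it that are missing from many gene models.

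Behind the lists stood 9880184 tags in heart, 13296938 in lung, 16589890.5 in kidney and 20058183 in liver. A tag is the caller's unit for counting mapped reads. The kidney total is not a whole number, so a tag need not be a whole read. The tag counts given here for a region were scaled by the authors to 10000000 tags per list. The lists held 81887 regions in heart, 101051 in lung, 61956 in liver and 88200 in kidney. A gene is called covered over the share of its annotated span that lies inside regions. The organ labels were checked on a defining gene each: Myh6 was covered over 100% of its span in heart and 0% elsewhere, and Slc34a1 over 100% in kidney and at most 14.9% elsewhere. Alb was covered over 95.9% in liver and at most 4.56% elsewhere, and Sftpc over 100% in lung, but also over 74.7% in liver. Having no region means only that nothing passed the caller's threshold there, not that polymerase was absent. In whole organs, polymerase in a few cells and little polymerase in many cells cannot be told apart.

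The promoter windows of the members that had a region, and of Mgat1, the gene next to Olfr1393, are shown because the results turn on these genes. Each window runs from 250 bases before to 50 bases after the start listed by RefSeq for GRCm38.p6, the assembly behind mm10. It is written 5′ to 3′ on the strand of the gene. In both receptor windows the bases from the listed start on begin with ATG, the start codon. Where non-coding exons are missing from a gene model, its window lies at coding sequence and need not hold the promoter. Capitals mark CG dinucleotides, which are dense at most broadly used promoters. The first window is that of Olfr1396 (chr11:49113708-49114007, minus strand), which lay whole inside a heart region and in no region of the other lists. The next is that of Olfr1393 (chr11:49279900-49280199, plus strand), which lay in no region of any list. The last is the first of 3 windows of Mgat1 (chr11:49243941-49244240, plus strand), all of which lay inside a region in all 4 lists.
Olfr1396: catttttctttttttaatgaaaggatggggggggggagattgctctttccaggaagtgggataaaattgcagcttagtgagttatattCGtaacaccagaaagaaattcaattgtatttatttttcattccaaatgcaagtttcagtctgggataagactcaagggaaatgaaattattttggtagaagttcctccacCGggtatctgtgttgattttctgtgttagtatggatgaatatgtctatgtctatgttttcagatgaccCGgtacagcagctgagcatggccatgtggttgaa
Olfr1393: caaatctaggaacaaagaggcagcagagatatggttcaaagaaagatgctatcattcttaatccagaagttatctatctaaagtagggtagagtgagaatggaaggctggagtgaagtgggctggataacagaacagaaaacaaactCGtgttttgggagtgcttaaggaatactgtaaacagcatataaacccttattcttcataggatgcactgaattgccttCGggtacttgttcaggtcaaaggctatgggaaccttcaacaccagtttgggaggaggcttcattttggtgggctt
Mgat1: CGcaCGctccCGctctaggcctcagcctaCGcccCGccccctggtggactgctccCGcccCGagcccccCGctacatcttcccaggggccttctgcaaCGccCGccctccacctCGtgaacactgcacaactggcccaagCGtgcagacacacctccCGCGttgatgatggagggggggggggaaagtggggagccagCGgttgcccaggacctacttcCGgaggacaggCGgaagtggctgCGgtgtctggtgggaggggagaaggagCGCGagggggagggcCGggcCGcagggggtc
The Olfr1396 window holds 3 CG dinucleotides and the Olfr1393 window 2, and the Mgat1 window shown 22. GC content was 38.3%, 42% and 70.7% in the same order. The other Mgat1 windows hold 2 CG at 51.3% GC and 15 CG at 62.7% GC. In each list they lay inside Mgat1 and in the same region as the first window. Their coverage therefore does not show whether a window poor in CG can hold a region of its own. The window of Btnl9, a neighbour of Olfr1396 that was covered in heart, holds 5 CG at 46% GC. RefSeq windows were found for 72 of the 83 members (73 windows). They held a median of 1 CG (0 to 7) and a median GC content of 40.7%, against 13 CG and 56.7% over the 21189 windows of all other protein-coding genes. None of the 73 member windows held 10 or more CG, compared with 56.9% of the other windows. Among 4 short motifs searched on both strands, TAATTA, a homeodomain motif of the kind Lhx2 binds, was in 19.2% of member windows and 4.48% of the other windows, TAATTG in 15.1% and 6.80%, and TATAAA, the TATA box, in 27.4% and 12.5%. The palindromic motif of the Ebf factors was in 0% and 0.963%. TAATTA and TAATTG share all letters but the last. These motifs and TATAAA consist wholly or mostly of A and T, and the member windows had the lower GC content. Windows of matched GC content were not compared, so what part base composition has in these shares was not tested. Receptor genes on other chromosomes (875 windows) shared these traits: a median of 1 CG, 34.7% GC, TAATTA in 18.5%, TAATTG in 23.9% and TATAAA in 42.2%. Of the windows printed, that of Olfr1393 holds TATAAA and that of Olfr1396 holds none of these motifs. A called region overlapped 1 of the 73 member windows in heart and 0 in kidney, liver and lung. Of the other windows, 43.3% were overlapped in heart, 44.1% in lung, 47.9% in liver and 48.9% in kidney. How many member windows lie at a true start of transcription was not tested. All these window values therefore describe listed starts, not known promoters.

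Of the 83 receptor genes, 81 had no called Pol II region anywhere in their span in any of the 4 lists. The exceptions were Olfr1396, with a region in heart only, and Olfr1393, with a region in all 4 lists. Members with at least 1 bp in a region numbered 2 in heart (2.41%, exact Clopper-Pearson 95% interval 0.293 to 8.43%) and 1 each in kidney, liver and lung (1.20%, 0.0305 to 6.53%). The same rule called 57.0% of all protein-coding genes in heart, 60.3% in lung, 56.7% in liver and 61.0% in kidney. Members covered over at least 50% of their span numbered 1 in heart, Olfr1396, and 0 in kidney, liver and lung, where this rule called 16.1% of all protein-coding genes in heart, 15.1% in lung, 21.9% in liver and 21.1% in kidney. These intervals cover counting error only, and members of a cluster are not independent. Receptors resemble each other in sequence, and how reads that fit several of them were treated is not stated, so an empty receptor may also be one with few unique reads, which was not tested. Of 21 receptor pseudogenes on the chromosome, 1 had a region, in lung.

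**Figure D1:**
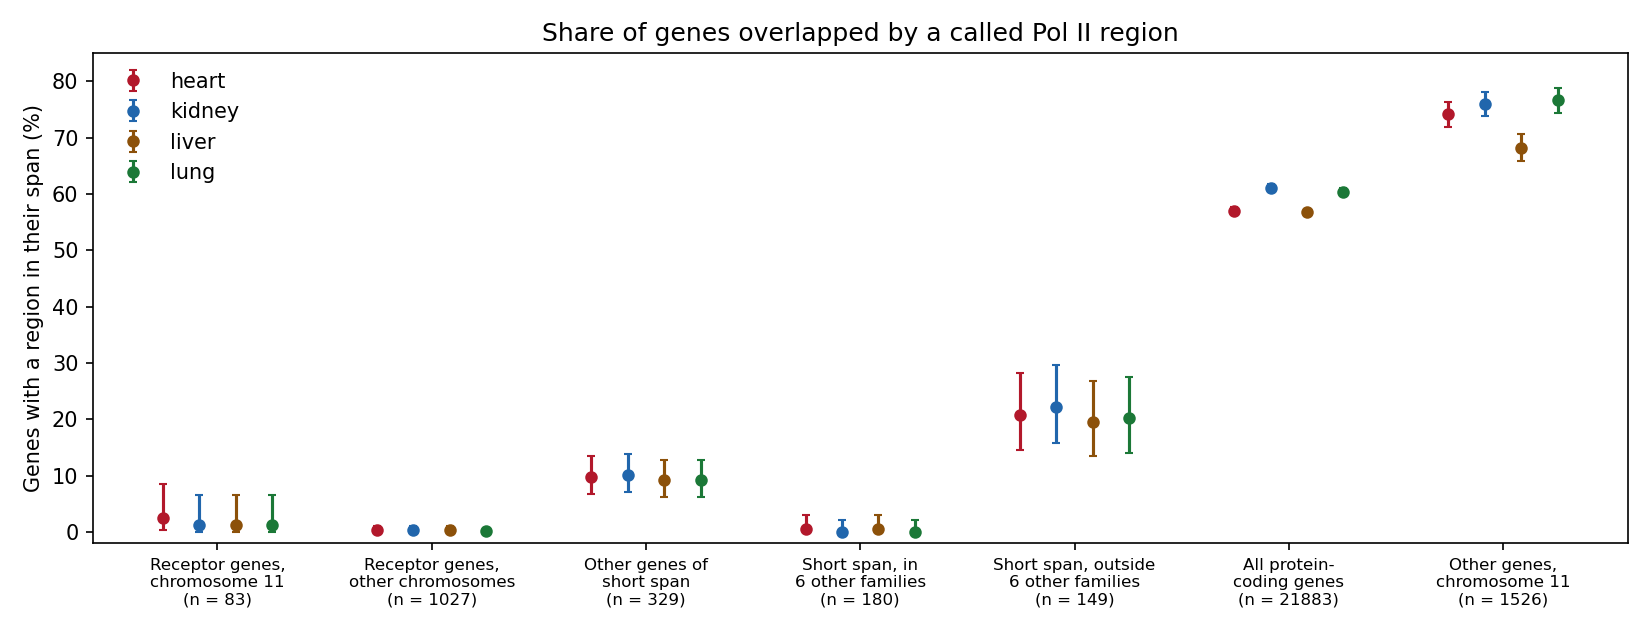
Percentage of genes with at least 1 bp of their span inside a called region (vertical axis), for 7 sets of genes and the 4 organs; points are shares and bars exact 95% binomial intervals. Both receptor sets lie between 0.195% and 2.41%, the short genes of 6 other families between 0% and 0.556%, and the 4 remaining sets between 9.12% and 76.6%.

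The members are short, with a median annotated span of 954 bp (921 to 28487 bp), and a short gene has less room for a region. Other protein-coding genes of 921 to 1107 bp numbered 329. Of these, 9.73% had a region in heart, 9.12% in lung, 9.12% in liver and 33 genes, or 10%, in kidney. Of the 329, 180 belong to 6 families of vomeronasal, trace amine, bitter taste, keratin-associated and defensin genes, a split made after values were seen. Within those families, 0.556% had a region in heart, 0% in lung, 0.556% in liver and 0% in kidney. Outside those families, 20.8% of the 149 remaining short genes had a region in heart, 20.1% in lung, 19.5% in liver and 22.1% in kidney. The member shares of 2.41% and 1.20% lay between those of the short genes within and outside these families in all 4 lists. What part the short span has in the member shares was not tested.

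Receptor genes on other chromosomes also had few regions. Of 1027, a region was found for 4 in heart (0.389%), 2 in lung (0.195%), 4 in liver and 4 in kidney, and 12 had a region in at least 1 list. None of those 12 had a region in all 4 lists, whereas Olfr1393 did. In heart, the region over Olfr1396 had the highest score and the most tags of any region over a receptor gene of any chromosome, and 6 receptor genes had a heart region. Families of other chemosensory receptors also had few: 1 of 231 Vmn1r genes, 4 of 124 Vmn2r genes, 1 of 15 Taar genes and 1 of 35 Tas2r genes had a region in any list. The keratin-associated protein genes (Krtap) had 0 of 56, and the beta-defensin genes (Defb) 7 of 42.

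The other protein-coding genes of chromosome 11 had regions far more often. Of 1526, 74.2% had a region in heart, 76.6% in lung, 68.2% in liver and 76.0% in kidney. The 15 broadly expressed genes taken as a scale all had a region in all 4 lists, among them the polymerase subunit gene Polr2a, the ribosomal protein gene Rpl26 (100% covered in all 4 lists) and Rack1 (100% in all 4). At least 50% of the span was covered for 14 of the 15 in heart, 13 in lung, 14 in kidney and 15 in liver, with the brain aldolase gene Aldoc the lowest in heart (7.37%).

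Members at most 100 kb apart were joined into 9 clusters, which together span 1797 kb. Regions covered 1.60% of these bases in heart, 0.166% in lung, 0.479% in liver and 0.482% in kidney. Over chromosome 11 from its first to its last protein-coding gene, the heart list covered 12.6%, the lung list 12.7%, the liver list 13.8% and the kidney list 14.5%. Clusters of other chromosomes, 74 in number, were covered over 0.139% in heart, 0.132% in lung, 0.179% in kidney and 0.195% in liver. In heart, kidney and liver most covered bases lay in the first 2 clusters, Olfr1396 to Olfr1394 (49112777 to 49160954) and Olfr1393 to Olfr1380 (49263873 to 49564858). In lung these held 1.48 kb of the 2.98 kb covered. In the other 7 clusters coverage was 0.616% in heart, 0.104% in lung, 0.0345% in kidney and 0.0875% in liver. These came from 6 heart regions, 3 lung regions, 1 kidney region and 2 liver regions.

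**Figure D2:**
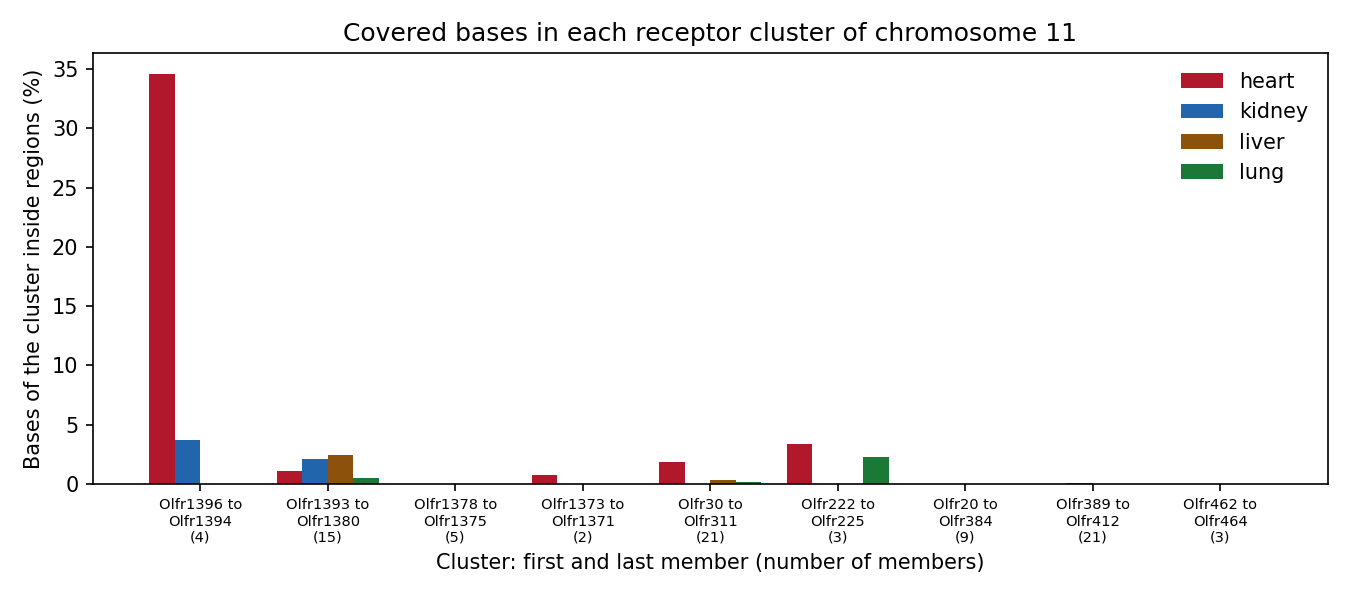
Percentage of the bases of each receptor cluster inside called regions (vertical axis), for the 9 clusters of chromosome 11 in order along the chromosome and the 4 organs as bars from 0. The heart bar of the cluster from Olfr1396 to Olfr1394 stands at 34.6%, and no other bar exceeds 3.72%.

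Olfr1396 was the only member whose whole annotated span lay inside a region. The gene (gene ID 258334, chromosome 11, 49112777 to 49113757, minus strand) was covered over 100% in heart and 0% in kidney, liver and lung. The heart region ran from 49104304 to 49121675, which is 17.4 kb, and held 410.4 tags per 10000000. Its score of 25.5 was 48th of the 81887 regions of the heart list, whose median score was 10, and its tag count was 1594th. The region reached 8472 bp beyond the gene on the low-coordinate side and 7918 bp beyond it on the other, and overlapped no other protein-coding gene. Heart regions at least this wide numbered 996, of which 51 (5.12%) overlapped no protein-coding gene other than receptors. Only 8 of the 996 had a score as high, while 982 of them had at least as many tags per kb as the 23.6 of this region (median 36.1).

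The other lists held small regions in the same 17.4 kb. They covered 862 bp in lung (2 regions, 19.98 tags), 951 bp in liver (2 regions, 14.5 tags) and 2274 bp in kidney (3 regions, 40.3 tags), and none was wider than 1123 bp. The region nearest to Olfr1396 was 5.26 kb away in kidney, 6.36 kb in liver and 5.92 kb in lung. Heart thus stood apart in this window, with the smallest library of the series.

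Olfr1396 lies in a 71.3 kb stretch between Ifi47, an interferon-inducible GTPase gene on the plus strand, and Btnl9, a butyrophilin-like gene on the minus strand, so that both genes are read towards the receptors. The heart region began 7.32 kb past the end of Ifi47 and ended 46.7 kb short of Btnl9. Ifi47 was covered over 60.6% in heart, 93.3% in lung, 62.3% in kidney and 80.1% in liver. Its regions held 340.1 tags in heart, 375.3 in lung, 235.3 in kidney and 545.4 in liver. Liver and lung thus had more tags at Ifi47 than heart and no region over Olfr1396. Btnl9 was covered over 63.3% in heart (9 regions, 327.4 tags) and 0% in kidney, liver and lung, so heart was the only list with a region at either Btnl9 or Olfr1396.

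Between Ifi47 and Btnl9, 40.4% of bases lay in regions in heart, against 7.22% in lung, 3.39% in liver and 4.82% in kidney. The heart list held 12 regions there, in a broken row that continued into Btnl9. They passed close to the other members of the cluster without touching them: the nearest heart region was 0.998 kb from Olfr56, 1.17 kb from Olfr1395 and 1.15 kb from Olfr1394. In kidney these distances were 5.27, 19.4 and 29.3 kb. Whether the heart region belongs to Olfr1396, to either neighbour or to a transcript of its own was not tested.

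**Figure D3:**
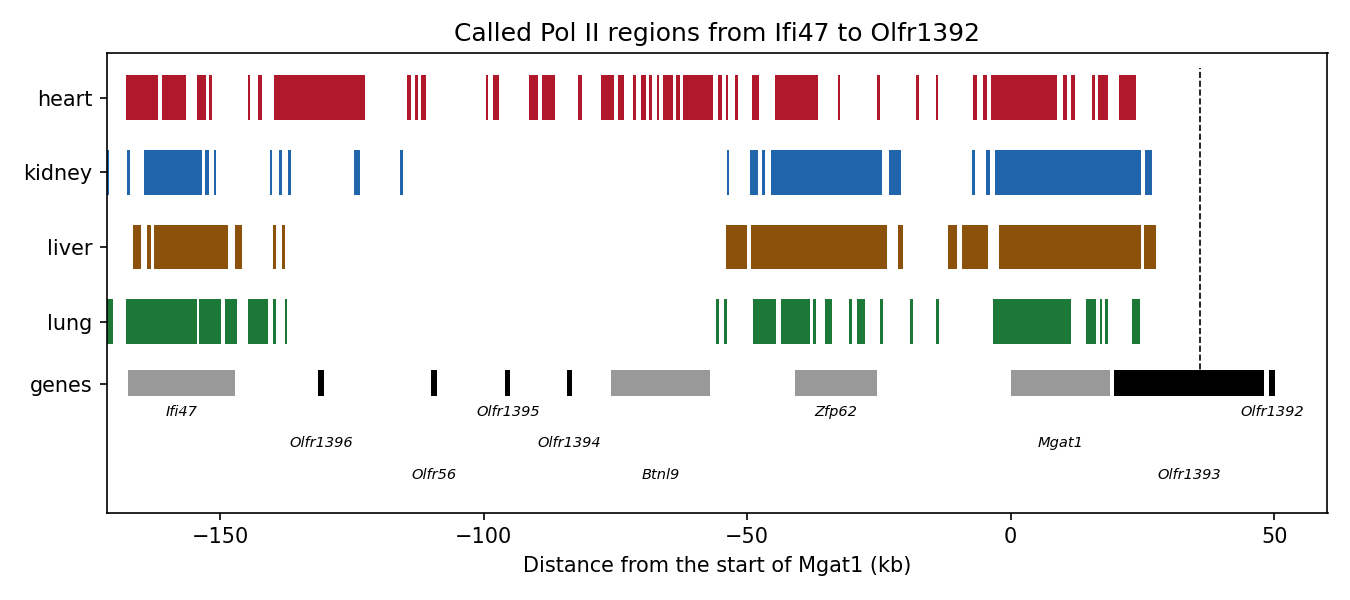
Map of called regions in heart, kidney, liver and lung (coloured blocks, 1 row per organ) and of protein-coding genes (black for receptors, grey for others), with distance from the start of Mgat1 in kb on the horizontal axis. The heart row has a 17.4 kb block over Olfr1396 and blocks from there to Btnl9, where the other rows are nearly empty; the dashed line marks the listed start of Olfr1393.

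Olfr1393 had a region in every list, each on the side of Mgat1. The gene (gene ID 258463, chromosome 11, 49263873 to 49292359, plus strand) has 10 RefSeq transcripts and the longest span of the members, 28487 bp. Its annotated span begins 845 bp after the end of Mgat1, which encodes the N-acetylglucosaminyltransferase that opens the synthesis of complex N-glycans and lies on the same strand. The covered share of Olfr1393 was 10.96% in heart, 5.20% in lung, 22.4% in kidney and 25.8% in liver. Mgat1 was covered over 67.1% in heart, 75.8% in lung, 100% in kidney and 100% in liver. The lists with the most of Mgat1 covered, kidney and liver, were also those with the most of Olfr1393 covered, but lung had more of Mgat1 and less of Olfr1393 covered than heart.

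In kidney the region ran through Mgat1 and into Olfr1393 without a break, from 49241237 to 49268899 (27.7 kb, 837.9 tags, score 13.5). A second kidney region followed at 49269639 to 49270981 (18.1 tags, score 17.5). In liver the corresponding regions ran from 49241899 to 49268940 (27.0 kb, 867.5 tags, score 15) and from 49269495 to 49271764 (29.7 tags, score 15.5). Kidney and liver thus had the same arrangement, a long region through Mgat1 and a short one past a gap. The tag counts of the long regions include Mgat1 and cannot be divided between the genes.

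In heart and lung the regions in Olfr1393 were separate from those over Mgat1. The heart region lay at 49264791 to 49267913 (3122 bp, 59.7 tags, score 12), 1.77 kb past the end of Mgat1. The lung region lay at 49267169 to 49268649 (1480 bp, 23.7 tags, score 12), 4.14 kb past it. Both fell inside the stretch that the long kidney and liver regions covered.

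All covered bases lay in the first part of the span of Olfr1393. Its first annotated base, 49263873, the 5′ end of the span, lay inside the long region in kidney and liver. In heart the first covered base was 49264792 and in lung 49267170. The last covered base was 4041 bp into the span in heart, 4777 bp in lung, 7892 bp in liver and 7109 bp in kidney. The start listed by RefSeq, 49280150, is 16.3 kb into the span. In the window printed above, the bases from this start on begin with ATG, the start codon. The listed start may therefore mark coding sequence, and distances to it need not be distances to a start of transcription. The nearest region to that start was 12.2 kb away in heart, 11.5 kb in lung, 8.39 kb in liver and 9.17 kb in kidney. From the listed start to the end of the gene, 12.2 kb, 0 bp were covered in any list. Olfr1392, the next receptor and also reported from kidney, had no region, and its nearest was 22.3 kb away in kidney.

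**Figure D4:**
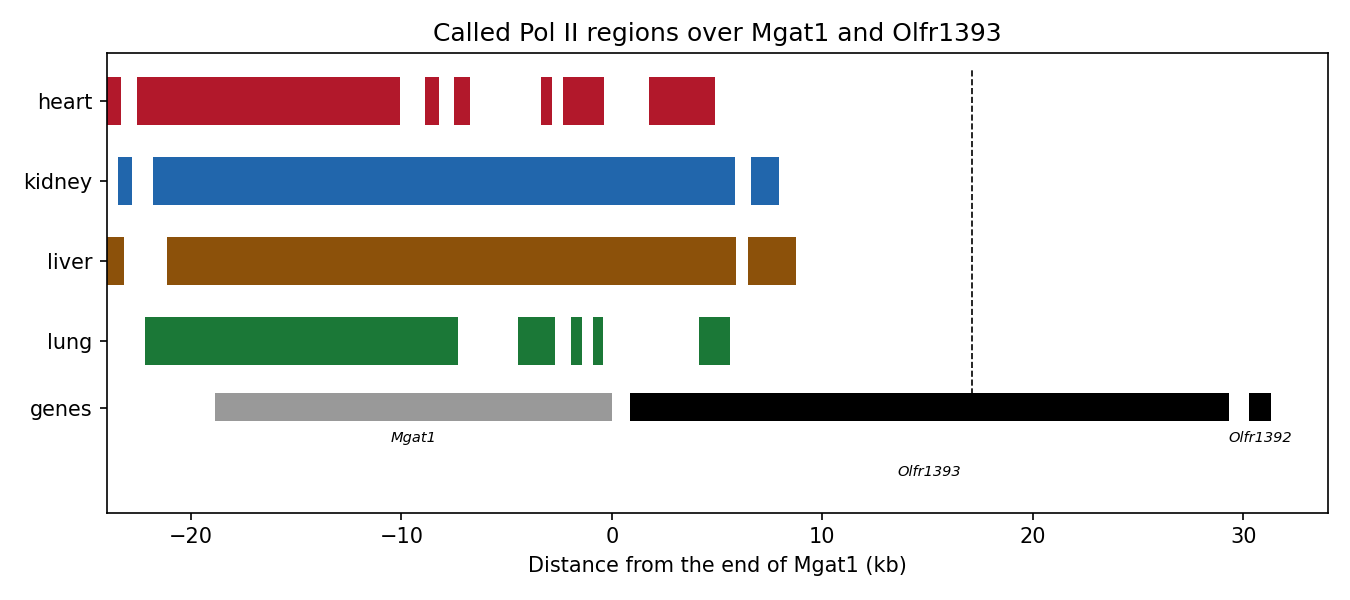
Map of called regions over Mgat1 (grey) and Olfr1393 (black) in the 4 organs, with distance from the end of Mgat1 in kb on the horizontal axis and the listed start of Olfr1393 as a dashed line. Regions stop between 4.89 kb (heart) and 8.74 kb (liver) past the end of Mgat1, and none reaches the dashed line.

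The reach of 5.87 kb in kidney and 5.91 kb in liver, for the region that crosses the end of Mgat1, was set beside other covered genes. Taken were genes covered over at least 50%, with known strand and no other protein-coding gene except receptors within 20 kb past the end. Of 732 such genes in kidney, 465 had a region across their end, with a median reach of 2.71 kb (quartiles 1.05 and 6.05 kb), and 26.0% reached at least as far as that of Mgat1. In liver 592 of 807 had such a region, with a median reach of 4.15 kb (1.93 and 8.35 kb), and 36.5% reached at least as far. The reach at Mgat1 was therefore above the median and below the upper quartile in both lists. Whether polymerase in the first part of Olfr1393 comes from Mgat1 or from a distant start of the receptor was not tested.

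Of the 7 regions that overlapped a member, all 7 overlapped or lay within 10 kb of a non-receptor gene covered over at least 50% in the same list, Mgat1 for 6 and Ifi47 for the heart region at Olfr1396. Among all regions, 23.7% lay that close to such a gene in heart, 19.8% in lung, 32.1% in liver and 27.7% in kidney. Only the long kidney and liver regions themselves overlapped such a gene. The 6 regions near Mgat1 all lie at Olfr1393, whose span begins 845 bp past Mgat1, so the 7 regions are not independent. In kidney and liver, the coverage of Mgat1 comes from the long region that is itself among the 7.

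Of 18 flanks of clusters, the nearest protein-coding gene was covered over at least 50% in at least 1 list at 6, and in all 4 lists at 3. Of the 1526 other genes of the chromosome, 762 were covered to that extent in at least 1 list, a larger share than among the flanking genes. The 18 flanks are few and count Zfp735 more than once, and whether the shares differ was not tested. Between Ppp2ca, the catalytic subunit gene of phosphatase PP2A (67.4 to 94.8% covered over the 4 lists), and Skp1, of the SCF ubiquitin ligase (29.3% in heart to 89.98% in liver), lie Olfr1373 and Olfr1371. The gene ends are 21.8 and 16.5 kb from this pair, and neither receptor had a region, although a 500 bp heart region of 11.1 tags lay between them. Mprip, 48.2 kb after Olfr225, was covered over 49.7% in heart, 56.5% in lung, 26.9% in kidney and 7.35% in liver. Nlrp3, 3.83 kb before Olfr222, was covered over 3.68% in lung and 0% in the other lists. The cluster of Olfr222, Olfr223 and Olfr225 between these genes held 2 short regions in heart, 2 in lung and 0 in kidney and liver. The nearest non-receptor gene to each of these regions was Nlrp3, at 8.41 to 42.1 kb. Non-receptor genes inside clusters had little or nothing. Of 4, Trim58 and 2210407C18Rik had 0% covered in all lists, Fam183b had 2.73% in lung and Zfp616 had 1.89% in kidney.

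Among the regions inside clusters that overlapped no member, none was wider than 3861 bp or held more than 86.0 tags. The medians of the whole heart list were 730 bp and 15.7 tags. In the cluster from Olfr1396 to Olfr1394, the widest such region was in heart, with 2326 bp and 43.0 tags. The cluster from Olfr30 to Olfr311 (58454915 to 58842042, 21 members) held 3 heart regions, the widest of 3861 bp with 86.0 tags. All 3 lay in the interval between Olfr324 and Olfr323, the nearest 1.83 kb from Olfr324. They were within 6.87 kb of 2210407C18Rik, which had no region itself. Liver had 2 regions of 10.2 and 7.98 tags in the same interval, and lung 1 of 9.02 tags at Fam183b. The cluster of Olfr389 to Olfr412 (73776387 to 74365609, 21 members) held a single 500 bp kidney region of 7.53 tags, inside Zfp616. The clusters of Olfr1378 to Olfr1375, Olfr20 to Olfr384 and Olfr462 to Olfr464 held 0 regions in all 4 lists.

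Most members sat far from any region. The median distance from a member to the nearest region was 82.6 kb in heart, 106 kb in lung, 102 kb in kidney and 95.2 kb in liver, while the median of the other 1526 genes of the chromosome was 0 kb in each list. Distances over 50 kb were found for 55 members in heart (66.3%), 57 in lung, 62 in liver and 57 in kidney, against 9.11% of the other genes in heart, 7.21% in lung, 12.5% in liver and 9.96% in kidney. The farthest was Olfr398 in liver, at 641 kb. With the 4 lists pooled, 70 of the 83 members lay in 7 stretches of over 100 kb without a region in any list. Such stretches make up 38.8% of the chromosome, so long empty stretches were not confined to receptors. The longest that held members ran 742 kb, with 21 receptors from Olfr20 to Olfr399. It was the 12th longest on the chromosome. Another of 338 kb held 14, from Olfr1392 to Olfr1380, and began where the liver region at Olfr1393 ended.

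**Figure D5:**
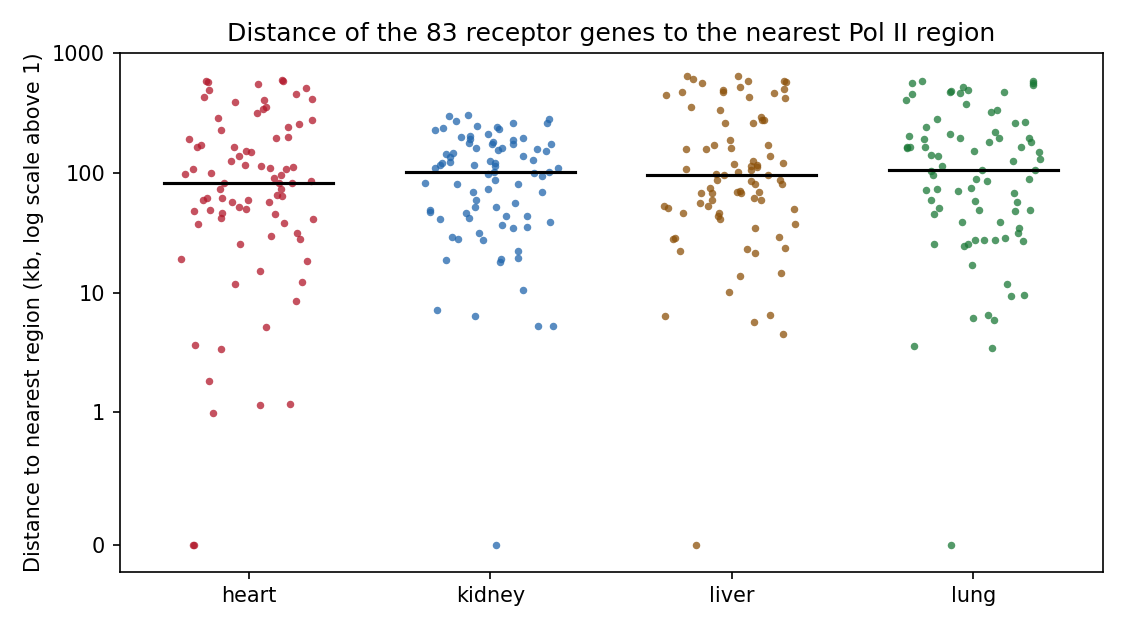
Distance from each of the 83 receptor genes to the nearest called region in kb (vertical axis, logarithmic above 1 kb), 1 point per gene in each of the 4 organs, with horizontal lines at the medians. Points at 0 are Olfr1396 and Olfr1393 in heart and Olfr1393 in the other lists; the medians lie between 82.6 and 106 kb.

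The partners of the receptors were read in the same way. Of 16 genes of olfactory transduction, 9 had a region in heart, 8 in lung, 7 in liver and 7 in kidney, but at least 50% of the span was covered for 0 in heart and for 1 in each other list. The shares with a region were 56.2% in heart, 50% in lung, 43.8% in liver and 43.8% in kidney. Their exact intervals were 29.9 to 80.2% in heart, 24.7 to 75.3% in lung and 19.8 to 70.1% in liver and kidney. Each interval held the share of all protein-coding genes in that list (56.7 to 61.0% over the lists), so no difference was shown. The 16 genes were also longer, with a median span of 67756.5 bp against 17170 bp over all protein-coding genes. Cnga2, the channel subunit, Gng13, a G protein subunit, the receptor transporters Rtp1 and Rtp2 and the cyclase Adcy3 were at 0% in all 4 lists. The covered ones were Gnb1, a G protein subunit gene used in many tissues (69.8% in kidney, 76.1% in lung), and Omp, the olfactory marker protein gene, at 100% in liver and 0% in the other lists. Omp lies within the span of Capn5, a calpain gene, and the liver region over it was 6884 bp wide with 105.9 tags, so its tags cannot be assigned to either gene. Of 18 genes that regulate receptor choice or its heterochromatin, 17 had a region in heart, 16 in lung, 16 in liver and 17 in kidney, and those covered over at least 50% numbered 3 in heart, 6 in lung, 7 in liver and 8 in kidney. The shares with a region, 88.9 to 94.4%, were above those of all protein-coding genes. These 18 genes were also longer, with a median span of 32072.5 bp, and what part length has was not tested. The shares covered over at least 50% were 16.7% in heart, 33.3% in lung, 38.9% in liver and 44.4% in kidney. Over all protein-coding genes they were 16.1%, 15.1%, 21.9% and 21.1% in the same order. The exact interval held the latter share in heart, lung and liver, and lay just above it in kidney (21.5 to 69.2%). Among the activators, Lhx2 was covered over 57.9% in kidney and at most 7.01% elsewhere, Emx2 over 100% in kidney and at most 7.498% elsewhere, and Ldb1 over 60.9 to 79.1% in all 4. The Ebf genes, with spans of up to 389997 bp (Ebf1), had at most 17.5% covered (Ebf3 in heart), and Ebf4 had no region. In heart, 11.4% of the bases of all protein-coding genes lay in regions. Of 7 receptors known from kidney or other organs outside the nose, Olfr1393 alone had a region, and Olfr56, Olfr78, Olfr90, Olfr1373, Olfr1392 and Olfr544 were at 0% in all lists.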

How the data were processed

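The submitters' processing notes name Bowtie2 2.2.8, HOMER 4.8 and the build mm10. Per the file headers, the authors ran findPeaks with its histone setting, which joins 500 bp windows into regions, at a Poisson p of 0.001 and with no control library named in the command. The deposited signal is a tag count scaled to 10000000 tags, the deposited score is the caller's own and was used within a list only, and the deposited ratio (clonal fold change) was not analysed further, per the file headers. Region length was taken as deposited. The labels and headers do not say what was done with reads that map to more than 1 place, so values at close paralogs such as receptors are uncertain, and a region may be missing where reads were not unique.

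Gene spans came from a RefSeq table of GRCm38.p6 (protein-coding genes of autosomes 1 to 19 and the sex chromosomes), and strand and listed starts from RefSeq promoter windows. Coordinates are as the files give them, and an offset of 1 bp between region and gene coordinates is possible. Covered percent is the share of a span inside regions. Clusters join members at most 100 kb apart. Interval code, in Python 3.11.15 with pandas 2.3.3, was tested on simulated data, where 100% of 2000 covered lengths and of 2000 distances equalled per-base counts. Named genes are all members with a region, the ends of clusters, members reported from kidney, genes sharing or nearest to a member region or flanking a cluster, and list genes. Distances and other members named with them, genes inside clusters, the reach past gene ends, short-gene sets, organ markers, Capn5, receptors of other chromosomes and motifs were added after values were seen. The members and lists were chosen with earlier results of these data known. Alternatives varied the overlap, flank, score, tags, neighbour distance and cluster gap.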

Additional observations from a re-analysis of the deposited data

How the results depend on the processing

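Of 68 values recomputed under an alternative, 54 stayed within 1.5 times the value reported and 14 moved further. With spans extended by 5 kb on both sides, members with a region numbered 8 in heart, 2 in liver and 3 in lung. At 25% of the span in place of 50%, 1 member was covered in liver, Olfr1393. With the upper 50% of regions by score, regions overlapping a member numbered 1 in liver, against 2. When a region itself had to overlap the covered neighbour, 0 member regions did so in heart, 0 in lung, 1 in liver and 1 in kidney, against 2 in heart, 1 in lung, 2 in liver and 2 in kidney within 10 kb. With members joined up to 500 kb apart, clusters took in other genes and their covered share became 3.60% in heart, 1.79% in lung, 2.84% in kidney and 3.28% in liver. With regions of at least 10 tags, the covered share in lung was 0.110%. No paired analysis was possible because each organ has 1 list, and no replicate could be left out. The lists differ in depth and in the tag threshold per window, which scaled to 10000000 tags was 9.11 in heart, 8.27 in lung, 7.23 in kidney and 6.98 in liver, so a gene without a region may hold polymerase under that threshold.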
